A study of Mus musculus with 14 samples.

Results

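The genes of the IL-1 and IL-18 receptor family lie next to each other on mouse chromosome 1, and their chromatin accessibility was described across splenic Treg states and Atg14 genotypes. Regions were taken from the deposited table of accessible regions when their midpoint had Il1r2, Il1r1, Il1rl2, Il1rl1, Il18r1 or Il18rap as its nearest protein-coding transcription start, or lay within the body of one of these genes. This rule found 38 of 67254 regions, of which 14 belonged to Il1r2, 3 to Il1r1, 1 to Il1rl2, 10 to Il1rl1, 5 to Il18r1 and 5 to Il18rap. They were numbered 1 to 38 in the order of the chromosome and covered chr1:40002092-40544998 (GRCm38), a stretch of 542.9 kb. Regions 1 to 3 lay inside introns of the neighbouring kinase gene Map4k4, and 19 of the 38 lay within the body of a receptor gene.

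The signalling receptors of this family share an intracellular domain with Toll-like receptors and signal through the adaptor MyD88 and kinases of the IRAK family to NF-kappaB. IL1R1 is the signalling receptor of IL-1, whereas IL1R2 binds IL-1 without signalling and acts as a decoy. IL1RL1, also called ST2, is the receptor of IL-33 and marks effector Tregs of non-lymphoid tissues, IL1RL2 is the IL-36 receptor, and IL18R1 and IL18RAP are the ligand-binding and accessory chains of the IL-18 receptor.

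ATAC-seq, in which a transposase cuts open chromatin, was performed on CD45.2+ CD4+ Foxp3-YFP+ Tregs sorted from the spleen of mixed bone marrow (BM) chimeras. CD45.2+ BM of C57BL/6-background donors that carried Foxp3Cre together with either Atg14+/fl (control) or Atg14fl/fl (Atg14-deficient) was combined 1 to 1 with CD45.1+ wild-type BM, given to sublethally irradiated Rag1-/- hosts and left for 6 to 8 weeks. Cre was driven by Foxp3 in all groups, which directs deletion to Foxp3-expressing cells, and controls carried a floxed Atg14 allele as well. The methods mention Atg14fl/fl animals with a deleted germline allele in some experiments and do not say whether such donors were used here. Central Tregs (cTregs) were labelled as CD44- cells and effector Tregs (eTregs) as CD44+ cells, gates that the study calls low and high for CD44. There were 3 control and 4 Atg14-deficient libraries of each state, 14 in all. The study counts as many chimeras of each genotype as there are libraries of each state. Both states thus appear to come from the same mice. The main fit holds no term for the mouse, so its p-values measure the spread between libraries of a group. Those between the states treat the libraries of a mouse as independent. The labels do not say that a replicate number stands for 1 mouse, and the age of the chimeras is not given in the sources used here.

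Library totals ranged from 2242983 to 5548189 counts in regions, and accessibility is given as CPM, the counts scaled to a common library total. On the first principal component of all regions (31.93% of the variance), the 7 eTreg libraries lay between 44.09 and 102.86. Control cTreg replicate 2 (-17.72) and Atg14-deficient cTreg replicate 4 (-22.59) were nearest to them, and the other 5 cTreg libraries lay between -134.27 and -74.54. These 2 intermediate cTreg libraries were above all 5 others at 11 of the 38 regions and below all of them at 0. The same count was not made over all regions of the table, so it is not shown to be a trait of the cluster. State differences are given with and without the 2 libraries. They were set apart by their place on a component that separates the states, so leaving them out favours wider state differences by the choice itself. This was not so at every region, and the log2 fold change of Il1r2 region 2 over both genotypes went from -1.49 to -1.31. Values without them are a description. Of the Treg markers, Il2ra, Ctla4 and Ikzf2 had an accessible promoter region in every library. Their sum was 109 to 119 CPM in control and 123 to 149 in Atg14-deficient cTregs. In eTregs it was 80.0 to 87.4 CPM in control and 103 to 107 in Atg14-deficient libraries. The sum did not overlap between the states within a genotype or between the genotypes within a state. Of the single genes, only Ikzf2 in eTregs did not overlap between the genotypes. It had 30.4 to 39.5 CPM in control and 46.1 to 51.9 in Atg14-deficient eTregs. Between the states, Il2ra overlapped in both genotypes, Ikzf2 in Atg14-deficient libraries and Ctla4 in neither genotype. The part of these markers in the results was not tested. For Foxp3 itself, no region within 1 kb of a start was analysed here. In bulk libraries, fewer cells of a kind and lower accessibility per cell cannot be told apart.

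Sequences of some of the regions named in the results were read from GRCm38, plus strand, over the central 200 bases of each region. Capitals mark matches, on either strand, to letters that transcription factor families are known to prefer. TGANTCA was searched for the AP-1 family, AGATAA for the GATA family, TGTGGT for the RUNX family and CTTTGA for the TCF/LEF family. Regions 8 and 2 flank Il1r2 upstream and changed in opposite directions between the states. Regions 21 and 23 lie upstream of Il1rl1 and region 31 in an intron of Il18r1. The windows were chr1:40008078-40008277, chr1:40059207-40059406, chr1:40382880-40383079, chr1:40393356-40393555 and chr1:40473779-40473978, in the order printed.
Il1r2 region 2: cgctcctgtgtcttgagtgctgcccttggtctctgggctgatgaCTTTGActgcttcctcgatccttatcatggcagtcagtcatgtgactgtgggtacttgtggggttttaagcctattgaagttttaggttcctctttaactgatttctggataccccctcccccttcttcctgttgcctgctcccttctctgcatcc
Il1r2 region 8: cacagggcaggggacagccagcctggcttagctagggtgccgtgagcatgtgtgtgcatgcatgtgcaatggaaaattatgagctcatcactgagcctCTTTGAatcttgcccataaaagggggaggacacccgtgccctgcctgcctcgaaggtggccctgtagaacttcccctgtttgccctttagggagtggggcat
Il1rl1 region 21: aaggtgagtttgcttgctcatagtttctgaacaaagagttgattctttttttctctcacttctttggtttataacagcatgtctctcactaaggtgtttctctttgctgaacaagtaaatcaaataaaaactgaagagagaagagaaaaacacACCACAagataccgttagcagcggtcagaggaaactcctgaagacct
Il1rl1 region 23: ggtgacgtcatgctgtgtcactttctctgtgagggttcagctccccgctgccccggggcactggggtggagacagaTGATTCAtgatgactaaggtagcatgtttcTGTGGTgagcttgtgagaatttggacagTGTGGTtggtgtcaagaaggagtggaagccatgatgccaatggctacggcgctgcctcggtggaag
Il18r1 region 31: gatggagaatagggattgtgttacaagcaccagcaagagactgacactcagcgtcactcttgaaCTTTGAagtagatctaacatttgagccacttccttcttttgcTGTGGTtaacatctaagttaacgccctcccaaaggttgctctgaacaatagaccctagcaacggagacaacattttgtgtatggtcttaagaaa

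Region 23 held an AP-1 match and a pair of RUNX matches, whereas regions 2 and 8 held a TCF/LEF match each. Regions 9, 11 and 24, also called between the states further on, are not printed. Region 9 held a RUNX match, region 11 held 2 TCF/LEF matches and region 24 held none. Across the 37 tested regions of the cluster, AP-1 letters occurred in 9, GATA letters in 2, RUNX letters in 13 and TCF/LEF letters in 8. Among 61322 tested regions searched in the same way, the shares were 11.6% for AP-1, 8.59% for GATA, 22.7% for RUNX and 14.8% for TCF/LEF. A match describes the letters of the window and not the binding of a factor.

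The first question was how accessible each receptor gene was in the 4 groups. Levels of different regions were compared per kb of region, because a longer region collects more counts. The highest mean over the 14 libraries was 49.1 CPM per kb at Il1r2 region 8, followed by 42.1 at Il18r1 region 33, and the lowest was 5.62 at Il18rap region 34. By state the order differed, since in cTregs Il18r1 regions 33 (41.4 ± 11.3 CPM per kb) and 31 (39.6 ± 11.2) were above Il1r2 region 8 (38.1 ± 7.30) by less than their SDs, and in eTregs region 8 had 60.1 ± 19.4 and region 33 had 42.8 ± 13.2. Region 34 was the one member that did not pass the low-count filter, with 0 to 4.62 CPM, and 37 regions were tested.

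At promoters, the order in both states was led by Il18r1 and Il1r2. The Il18r1 promoter (region 29, chr1:40465459-40465795) had 37.4 ± 4.54 CPM per kb in cTregs and 33.7 ± 11.3 in eTregs (SD, n = 7 each). Region 9 (chr1:40084480-40084834), immediately upstream of an Il1r2 start, had 20.8 ± 5.20 CPM per kb in cTregs and 42.1 ± 9.98 in eTregs, below the Il18r1 promoter in cTregs and with overlapping libraries in eTregs. Of the 3 other Il1r2 regions within 1 kb of a start, region 10 had 28.3 ± 5.26 in cTregs and 33.0 ± 9.42 in eTregs and overlapped with the Il18r1 promoter in both states. Regions 11 and 12 were lower in cTregs (12.1 ± 5.20 and 11.3 ± 4.54 CPM per kb), and in eTregs they had 29.1 ± 15.4 and 10.2 ± 3.27. The Il18rap promoter (region 35, chr1:40515171-40515525) and the Il1rl2 promoter (region 18, chr1:40324447-40325152) were lower, with 17.1 ± 4.86 and 11.1 ± 2.02 CPM per kb in cTregs and 14.3 ± 4.18 and 10.3 ± 3.80 in eTregs. No region of the table lay within 1 kb of a protein-coding start of Il1r1 or Il1rl1. In cTregs the libraries of Il1r2 regions 10 and 9, the Il18rap promoter and the Il1rl2 promoter overlapped from one to the next, and in eTregs the Il18rap promoter lay below Il1r2 regions 9 and 10 in all libraries and overlapped with the Il1rl2 promoter. The Il1r1 region with the highest mean over all libraries was region 16 (chr1:40271084-40271517) in an intron, with 12.3 ± 3.29 CPM per kb in cTregs and 15.1 ± 5.19 in eTregs, while region 17 in the last exon had 16.0 ± 6.63 in cTregs and 10.5 ± 4.57 in eTregs.

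**Figure D1:**
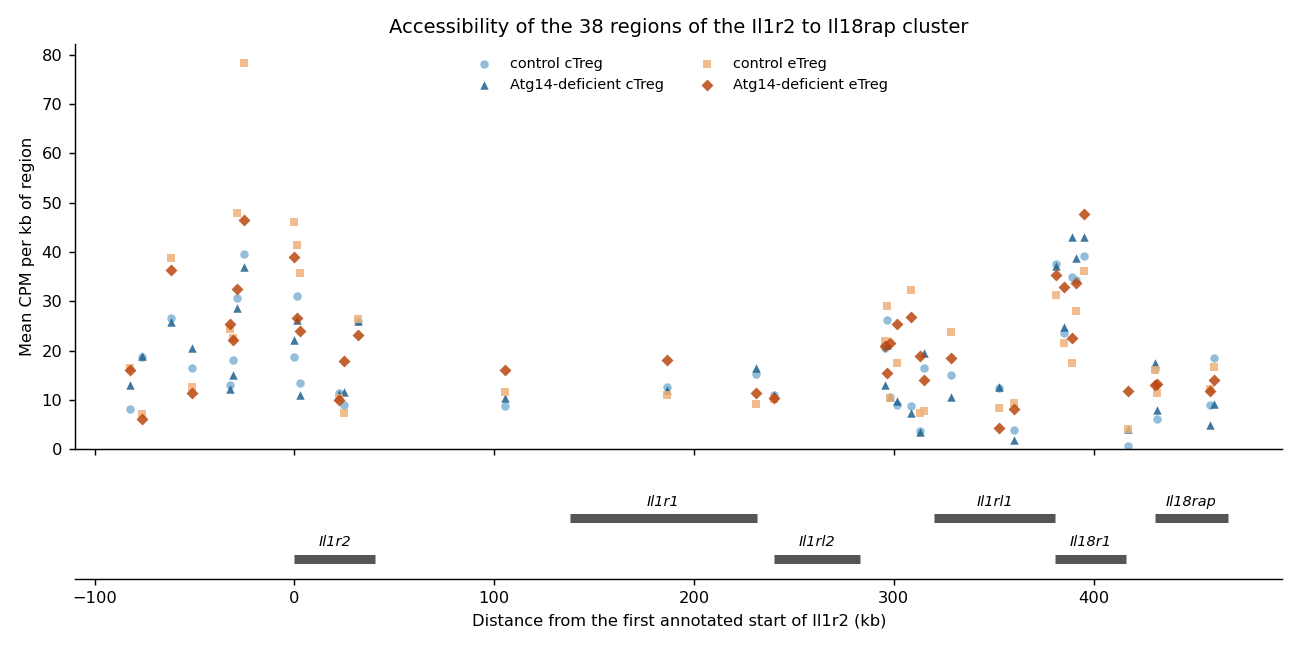
Mean accessibility (CPM per kb of region, vertical axis) of the 38 regions in the 4 groups against the distance in kb from the first annotated start of Il1r2, with the receptor gene bodies drawn below as bars. Accessible regions gathered at and upstream of Il1r2, upstream of and within Il1rl1 and over Il18r1, and the highest point is Il1r2 region 8 in control eTregs.

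The second question was how eTregs differed from cTregs. Averaged over both genotypes, the Il1r2 promoter, a distal Il1r2 region and a pair of regions upstream of Il1rl1 were more accessible in eTregs, while an intronic region of Il18r1 and a distal region inside Map4k4 were less accessible. Of the 37 tested regions, 7 passed the adjusted threshold (edgeR's quasi-likelihood test with Benjamini-Hochberg adjustment, at 0.05 and with an absolute log2 fold change over 0.5), which is 18.9% of them, beside 18.9% of all 61366 tested regions. More accessible in eTregs were 5 regions (background 8.40%) and less accessible 2 (background 10.5%). The median log2 fold change was 0.27 over the cluster, with 24 of 37 above 0, and 0.01 over all tested regions, with 51.0% above 0. The share called in the cluster was thus that of the whole table in this fit, whereas with the replicate number as a block it was 32.4% (12 of 37), beside 22.9% of all tested regions.

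The cTreg markers Ccr7, Lef1, Tcf7, Bach2 and Satb1 had promoter regions for all 5 genes, and their summed level moved with the state, at 363 to 432 CPM in control and 367 to 424 in Atg14-deficient cTregs against 263 to 281 in control and 246 to 316 in Atg14-deficient eTregs. The intermediate libraries had the lowest sums of their groups. The eTreg list (6 of 7 genes, all but Itgae) overlapped, with 307 to 362 CPM in cTregs and 299.9 to 340.4 in eTregs, and 5 of its 6 members overlapped between the states in both genotypes. Icos did so in neither, with 47.4 to 60.2 CPM in control cTregs and 28.7 to 34.1 in control eTregs, while Klrg1 had 0 to 1.92 CPM in control cTregs and 1.44 to 3.67 in control eTregs. The promoter of Cd8b1, a CD8 T cell marker, had 10.3 to 21.4 CPM in cTregs and 1.54 to 6.83 in eTregs. For other cells that can carry ST2, the ILC2 list (3 of 3 genes, Il17rb, Hpgds and Klrg1) summed to 54.6 to 83.1 CPM in cTregs and 67.8 to 93.0 in eTregs. Most of this sum was Hpgds, with 42.0 to 70.5 CPM in cTregs and 56.8 to 83.9 in eTregs. Il17rb had 6.4 to 11.6 CPM in cTregs and 4.2 to 8.5 in eTregs, and Klrg1 is also in the eTreg list. None of the 4 mast cell or basophil genes and none of the 4 B cell genes had a promoter region. The NK cell list (1 of 2 genes, Klrb1c) reached 0 to 3.21 CPM in cTregs and 1.06 to 5.99 in eTregs, and the myeloid list (1 of 4, Cd14) 2.52 to 7.01 and 2.65 to 5.99. The part of these markers in the state differences was not tested.

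Il1r2, the IL-1 decoy receptor, had 4 of its 14 regions past the adjusted threshold. At the promoter region 9, the cTreg libraries had 3.57, 8.07 and 8.38 CPM (control) and 6.72, 7.36, 8.56 and 8.99 CPM (Atg14-deficient), and the eTreg libraries had 14.7, 17.1 and 17.2 CPM (control) and 7.71, 13.4, 16.7 and 17.7 CPM (Atg14-deficient). All eTreg libraries but Atg14-deficient replicate 4 were above every cTreg library. This was a log2 fold change of 1.02 ± 0.22 (SE, adjusted p = 0.00161), a 2.03-fold level in eTregs.

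Region 11 (chr1:40087577-40087751), in an intron 0.9 kb upstream of another Il1r2 start, was lower in level and showed the same direction. It had a median of 2.23 CPM in cTregs (range 0.779 to 3.16) and of 4.88 CPM in eTregs (range 1.67 to 9.71), so the states overlapped. Its log2 fold change of 1.22 ± 0.39 (adjusted p = 0.0245) lost the threshold without control cTreg replicate 1 (adjusted p = 0.071), control eTreg replicate 2 (0.111) or Atg14-deficient eTreg replicate 1 (0.063). The other starts of Il1r2 did not pass. Region 10 (chr1:40085734-40086145), over an untranslated exon, differed by a log2 fold change of 0.20 ± 0.19 (adjusted p = 0.479), and region 12 (chr1:40106668-40106926) had medians of 3.16 CPM in cTregs and 3.06 in eTregs.

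Region 8 (chr1:40059115-40059499) lay 25.4 kb upstream of Il1r2, outside any gene. Its levels were 12.5, 13.7 and 19.6 CPM in control cTregs, 11.8, 13.7, 14.02 and 17.3 in Atg14-deficient cTregs, 26.0, 30.3 and 34.1 in control eTregs and 14.6, 14.8, 19.5 and 22.6 in Atg14-deficient eTregs. Control eTregs were above all other libraries, whereas Atg14-deficient eTregs overlapped with cTregs. Over both genotypes the log2 fold change was 0.64 ± 0.17 (adjusted p = 0.00753).

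Region 2 (chr1:40007988-40008368), 76.5 kb upstream of Il1r2 in a Map4k4 intron, went the other way. The cTreg libraries had 4.46 to 10.5 CPM (median 6.42) and the eTreg libraries 1.80 to 3.67 CPM (median 2.51). No library of one state reached the other, and the exact two-sided permutation p of 0.000583 is the smallest that 7 against 7 libraries can give. It treats the libraries as independent, and if those of the states were 7 pairs from the same mice, the smallest exact p would be 0.0156. The log2 fold change was -1.49 ± 0.31 (adjusted p = 0.000984), a 0.357-fold level in eTregs. The flanking genes gave the surroundings. Among 24 tested regions nearest to Map4k4, Slc9a2 or Mfsd9, 5 were less accessible in eTregs and 1 was more accessible, all of Map4k4, beside 10.5% and 8.40% of all tested regions, with a median log2 fold change of -0.23. The Map4k4 promoter had a log2 fold change of 0.58 ± 0.19 (adjusted p = 0.0261).

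Il1rl1, the IL-33 receptor gene, had 2 of 10 regions past the threshold, both upstream of its first start. Region 23 (chr1:40393229-40393682), 11.4 kb upstream, had 0.892, 1.96 and 9.09 CPM in control cTregs, 0.779, 1.05, 3.36 and 8.35 in Atg14-deficient cTregs, 10.5, 15.0 and 18.6 in control eTregs and 6.09, 7.95, 15.9 and 19.0 in Atg14-deficient eTregs. The high cTreg values, 9.09 and 8.35 CPM, were those of the intermediate libraries, and they overlapped with the lower Atg14-deficient eTregs. The log2 fold change was 1.81 ± 0.48 (adjusted p = 0.013), and 3.05 ± 0.39 without the intermediate libraries.

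Region 24 (chr1:40397536-40397745), 7.2 kb upstream, was near the limit of detection in cTregs. It had 0 to 1.26 CPM in cTregs (median 0.892) and 0.651 to 5.91 CPM in eTregs (median 2.65), and its mean count over the libraries was 6.57. A count of 0 allows up to 3 counts, which was 0.541 to 1.34 CPM depending on the library, and covers counting error only. The log2 fold change of 1.68 ± 0.60 (adjusted p = 0.0427) ranged from 1.20 to 1.84 when single libraries were left out, and the call was lost without control cTreg replicate 1, 2 or 3, Atg14-deficient cTreg replicate 2 or 3, control eTreg replicate 2, or Atg14-deficient eTreg replicate 1 or 4 (adjusted p 0.0578 to 0.222).

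Within the body of Il1rl1, region 28 (chr1:40444742-40445041) was at 0 in 4 of 7 cTreg libraries. The other cTreg values were 0.489 CPM in control replicate 1 and 3.11 and 2.25 CPM in the intermediate libraries, while all eTreg libraries had 1.67 to 3.90 CPM. Over all libraries the log2 fold change was 1.54 ± 0.67 (adjusted p = 0.101), and without the intermediate libraries 4.59 ± 0.97, a fitted value against libraries near 0 and no bound. Region 25 (chr1:40399662-40400090) had a log2 fold change of -0.73 ± 0.31 (adjusted p = 0.085), opposite in sign to its neighbours 23 and 24. With the replicate number as a block, region 25 passed (-0.84 ± 0.28, adjusted p = 0.0204), as did regions 22 (1.30 ± 0.28, adjusted p = 0.000367), 23, 26 and 28, while region 24 did not (1.60 ± 0.65, adjusted p = 0.0592).

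**Figure D2:**
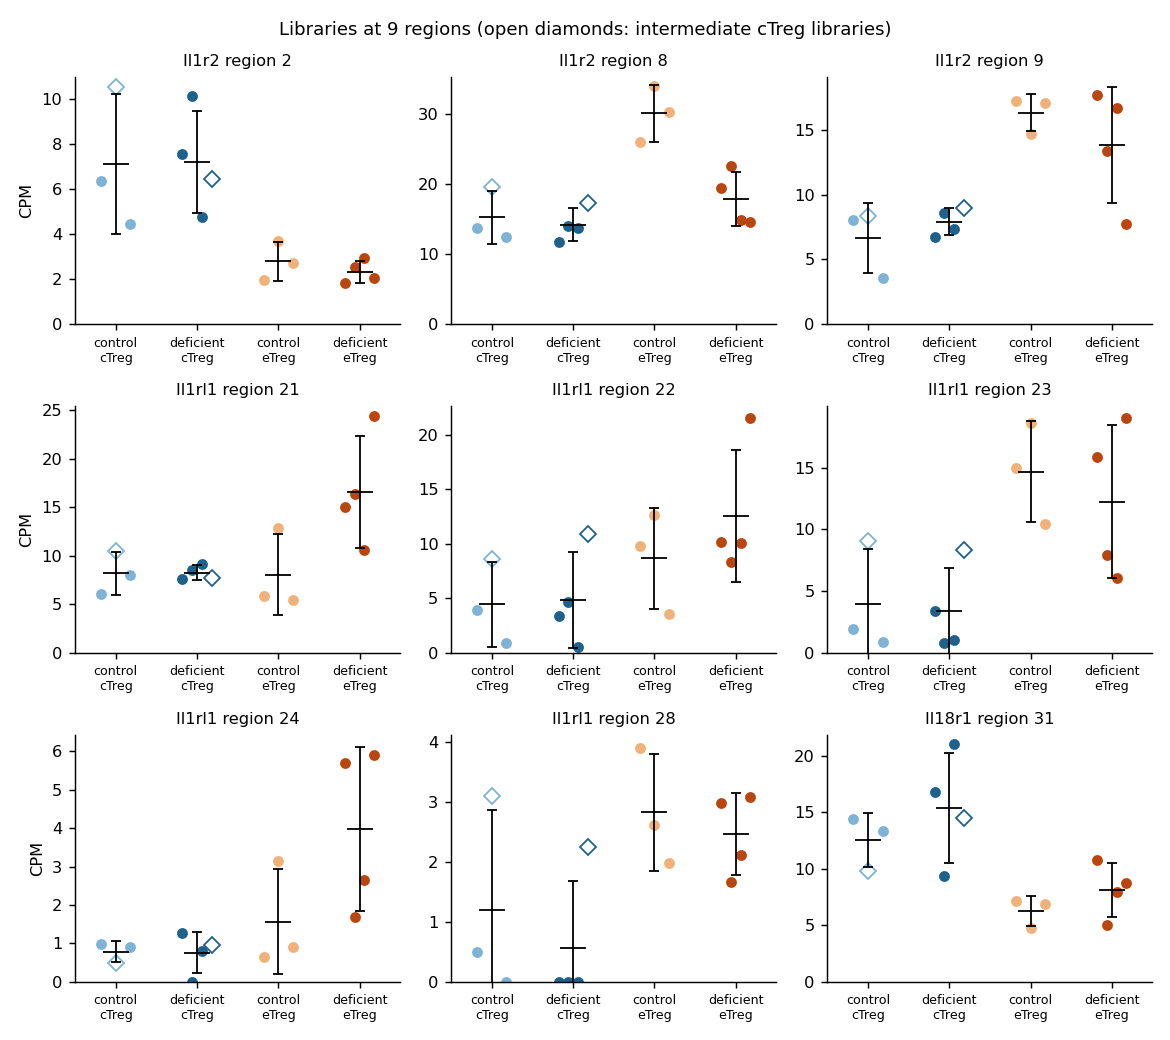
Accessibility (CPM, vertical axis) of each library at 9 regions in the 4 groups, with the mean and SD as bars (cut at 0 on the axis) and the intermediate cTreg libraries as open diamonds. Il1r2 region 2 is lower in every eTreg library than in any cTreg library, the diamonds stand above the other cTreg libraries at Il1rl1 regions 22, 23 and 28, and at Il1rl1 region 21 the genotypes overlap in eTregs (5.41 to 12.9 CPM in control and 10.6 to 24.4 in Atg14-deficient libraries).

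At the IL-18 receptor genes, Il18r1 had 1 of 5 regions past the threshold and Il18rap 0 of 4. Region 31 (chr1:40473700-40474057), in an intron 7.9 kb downstream of an Il18r1 start, had 9.81, 13.4 and 14.4 CPM in control cTregs, 9.34, 14.5, 16.8 and 21.03 in Atg14-deficient cTregs, 4.72, 6.85 and 7.16 in control eTregs and 5.02, 7.94, 8.73 and 10.8 in Atg14-deficient eTregs. The highest eTreg library overlapped with the lowest cTreg libraries. Its log2 fold change between the states was -0.95 ± 0.23 (adjusted p = 0.00311). The Il18r1 promoter differed by -0.15 ± 0.22 (adjusted p = 0.663) and the neighbouring intronic region 33 (chr1:40479433-40479892), the most accessible of the gene, by 0.00 ± 0.20 (adjusted p = 0.992). The Il18rap promoter had a log2 fold change of -0.23 ± 0.29 (adjusted p = 0.606), with 4.28 to 9.24 CPM in cTregs and 2.05 to 6.69 in eTregs.

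Il1r1 and Il1rl2, the receptors of IL-1 and IL-36, had 0 of 3 and 0 of 1 regions past the threshold. At unadjusted p below 0.05 with the same fold change, the count over the cluster was 14 of 37, beside 27.8% of all tested regions. Il1r1 region 16 had 4.20 to 7.89 CPM in cTregs and 3.58 to 9.76 in eTregs (log2 fold change 0.18 ± 0.27, adjusted p = 0.675). The Il1rl2 promoter had 6.42 to 10.1 CPM in cTregs and 3.60 to 11.6 in eTregs (log2 fold change -0.11 ± 0.26, adjusted p = 0.807).

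Without the intermediate cTreg libraries, 13 of the 37 regions passed, 11 more and 2 less accessible in eTregs, beside 21.7% of all tested regions, where the choice of the libraries enters both numbers. Of the 7 regions called with all libraries, 6 were among them, and region 24 was not (log2 fold change 1.60 ± 0.67, adjusted p = 0.0801). The added regions were 3, 5, 6 and 7 upstream of Il1r2 and 22, 26 and 28 of Il1rl1. Region 7, for example, had 25.4 and 28.6 CPM in the intermediate libraries, 5.45 to 14.4 in the other cTregs and 15.9 to 28.3 in eTregs, and its log2 fold change was 0.87 ± 0.22 without and 0.38 ± 0.25 (adjusted p = 0.286) with them. Leaving out Atg14-deficient cTreg replicate 4 alone gave 11 calls, and leaving out any other single library gave 5 to 9. With the replicate number as a block, the 12 regions that passed over both genotypes were 9 more and 3 less accessible ones in eTregs. In the same fit 4 passed in control mice (10.4% of all) and 7 in Atg14-deficient mice (15.5% of all).

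Within each genotype the same comparison had fewer libraries. In control mice 2 of 37 regions passed, both of Il1r2 and more accessible in eTregs, beside 5.30% of all tested regions. These were region 8 (log2 fold change 0.97 ± 0.25, adjusted p = 0.0215) and region 9 (1.24 ± 0.34, adjusted p = 0.0273). Both were lost without control cTreg replicate 3 (0.0911 and 0.125), control cTreg replicate 1 (0.118 and 0.0699), control eTreg replicate 2 (0.0896 and 0.0506) or control eTreg replicate 3 (0.053 and 0.0716), and region 9 also without control eTreg replicate 1 (0.0895). Without control cTreg replicate 2, the control library of the intermediate pair, and its Atg14-deficient counterpart, 4 regions passed (6.75% of all), with Il1rl1 region 23 at 3.21 ± 0.60.

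In Atg14-deficient mice 4 of 37 regions passed, beside 9.81% of all tested regions. Il1rl1 regions 21 (1.00 ± 0.31, adjusted p = 0.0382) and 24 (2.36 ± 0.77, adjusted p = 0.0452) were more accessible in eTregs, and Il1r2 region 2 (-1.61 ± 0.42, adjusted p = 0.0142) and Il18r1 region 31 (-0.91 ± 0.29, adjusted p = 0.0435) less accessible. Without the intermediate libraries 6 passed, beside 12.6% of all, among them regions 2 and 31, while regions 21 (0.96 ± 0.34, adjusted p = 0.0579) and 24 (2.50 ± 0.86, adjusted p = 0.051) did not. Leaving out Atg14-deficient cTreg replicate 1, 2 or 3 left 1 of the 4 calls, leaving out Atg14-deficient eTreg replicate 1, 2 or 3 left 2, and leaving out Atg14-deficient eTreg replicate 4 left 1, region 2, and added Il1r2 region 9 (1.01 ± 0.29, adjusted p = 0.0374). Leaving out Atg14-deficient cTreg replicate 4, of the intermediate pair, left 2 and added Il1rl1 regions 22, 23 and 28. Region 21 was lost without any single Atg14-deficient library but eTreg replicate 3 (log2 fold change 0.74 and adjusted p = 0.19 without eTreg replicate 4), and region 24 without any but eTreg replicate 2 (2.11 and adjusted p = 0.151 without eTreg replicate 4). Region 31 was lost without cTreg replicate 1 or 3 or eTreg replicate 2, 3 or 4 (-0.72 and adjusted p = 0.19 without cTreg replicate 3), and region 2 without cTreg replicate 2 (-1.40, adjusted p = 0.056). A call in one genotype and not in the other does not show a difference between them, which was tested as the interaction given further on.

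**Figure D3:**
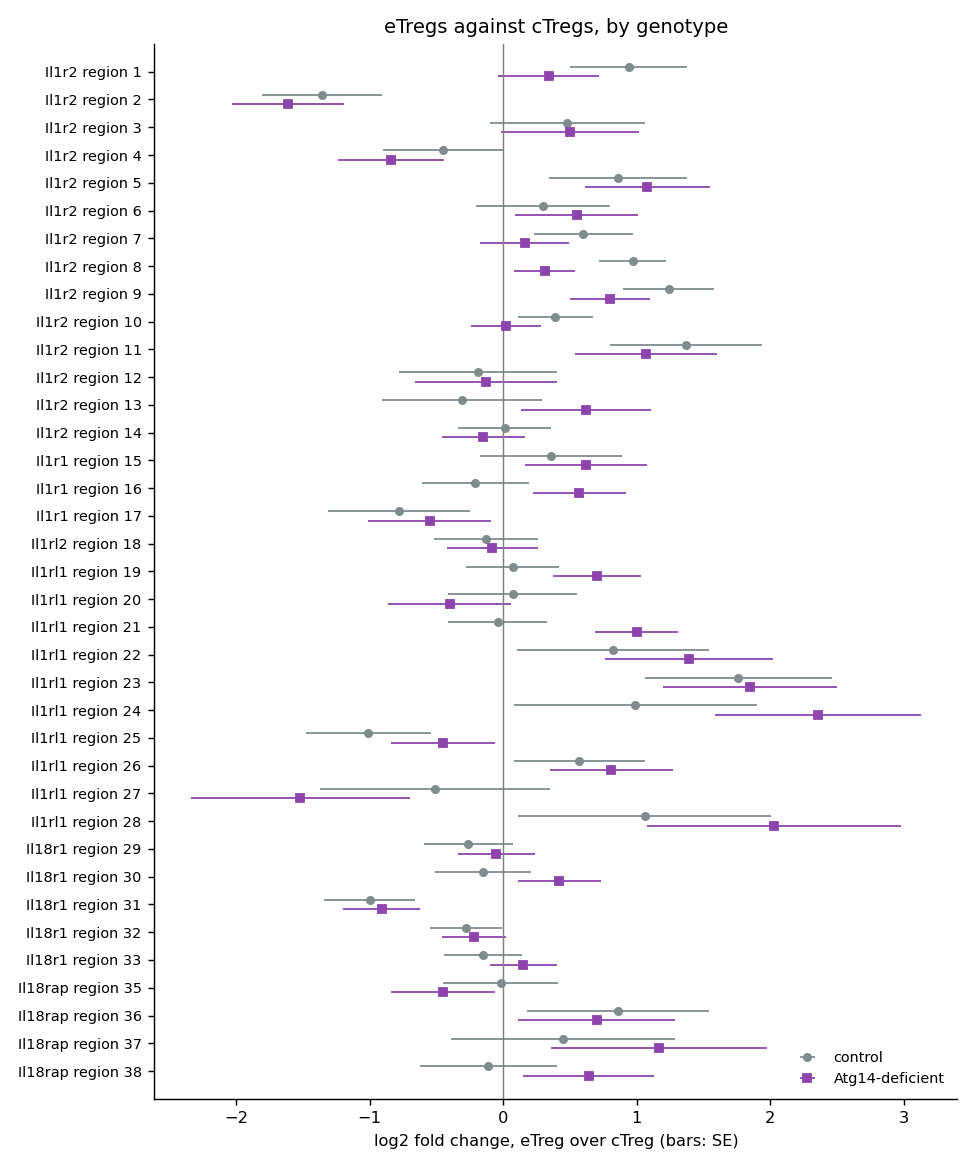
log2 fold change of eTregs over cTregs (horizontal axis, bars are SE) for the 37 tested regions in control and Atg14-deficient libraries. Il1r2 region 2 and Il18r1 region 31 lie below 0 in both genotypes and Il1rl1 region 23 above 1 in both, whereas region 21 stands at -0.04 in control and 1.00 in Atg14-deficient libraries.

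The third question, that of the study, was what loss of Atg14, a subunit of the Vps34 lipid kinase complex that starts autophagosome formation, changed in either state. In eTregs 0 of 37 regions passed the adjusted threshold, beside 0.0228% of all tested regions. At the unadjusted threshold 4 regions passed, 10.8% of the cluster beside 6.36% of all. These were 2 less accessible and 2 more accessible regions in Atg14-deficient eTregs. Over all tested regions 72.2% of such calls were toward higher accessibility, and 55.8% when a trend on abundance was removed from each library, so the split of directions depended on the scaling. DESeq2's Wald test gave 0 adjusted and 4 unadjusted calls, and the unadjusted count was 7 without Atg14-deficient eTreg replicate 2.

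At Il1r2, 3 of 14 regions passed the unadjusted threshold, 2 with lower and 1 with higher levels in Atg14-deficient eTregs, and 0 passed the adjusted one. Region 8 had 26.0 to 34.1 CPM in control and 14.6 to 22.6 CPM in Atg14-deficient eTregs, without overlap, and the log2 fold change was -0.77 ± 0.23 (unadjusted edgeR p = 0.00228, adjusted p = 0.37, exact two-sided permutation p = 0.0571). The last is the smallest p that 3 against 4 libraries can give. In cTregs the same region differed by -0.12 ± 0.25 (exact permutation p = 0.571).

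Region 10 (13.7, 18.6 and 18.9 CPM in control and 8.39, 11.3, 11.6 and 12.6 CPM in Atg14-deficient eTregs) also did not overlap. Its log2 fold change was -0.63 ± 0.26 (unadjusted edgeR p = 0.0226, adjusted p = 0.561, exact permutation p = 0.0571). It missed the unadjusted threshold without control eTreg replicate 1 (log2 fold change -0.55) or 2 (-0.56) or Atg14-deficient eTreg replicate 1 (-0.52). The intronic region 13 (chr1:40109395-40109630) went the other way, with 1.05, 1.95 and 2.16 CPM in control and 3.08, 3.77, 4.79 and 5.29 CPM in Atg14-deficient eTregs. Its log2 fold change was 1.27 ± 0.55 (unadjusted edgeR p = 0.0269, adjusted p = 0.567, exact permutation p = 0.0571), and it missed the unadjusted threshold without control eTreg replicate 2 (1.02) or Atg14-deficient eTreg replicate 1 (1.21) or 3 (1.14). Over the 14 Il1r2 regions the median was -0.13, with 2 of 14 above 0 under this and each of 3 other scalings, beside a median of 0.06 and 56.2% above 0 over all tested regions.

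At Il1rl1, region 21 (chr1:40382595-40383364), 21.9 kb upstream, passed the unadjusted but not the adjusted threshold in eTregs. Control eTregs had 5.41, 5.86 and 12.9 CPM and Atg14-deficient eTregs 10.6, 15.0, 16.3 and 24.4 CPM, and control replicate 2 overlapped with the lowest of them. The log2 fold change was 1.05 ± 0.33 (unadjusted edgeR p = 0.00382, adjusted p = 0.413, exact permutation p = 0.114). Its cTreg levels were 6.11, 8.03 and 10.5 CPM in control and 7.56, 7.71, 8.56 and 9.20 CPM in Atg14-deficient libraries, with a difference of 0.01 ± 0.35 (exact permutation p = 1). The eTreg-accessible region 23 differed by -0.24 ± 0.60 in eTregs (exact permutation p = 0.571) and by -0.33 ± 0.75 in cTregs (exact permutation p = 0.857), the latter 0.08 ± 0.76 without the intermediate libraries.

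None of the 5 Il18r1, 3 Il1r1 and 1 Il1rl2 regions passed in eTregs, and neither did the 4 tested Il18rap regions. All 5 Il18r1 regions had a log2 fold change above 0 (0.21 to 0.61), as had the 3 Il1r1 regions (0.29 to 0.70). This also held under the 3 other scalings, and 56.2% of all tested regions were above 0 in the main fit. With the replicate number as a block, which here joins same-numbered libraries of different mice, Il1r1 region 17 was at -0.01. Region 34 of Il18rap, outside the tests, was at 0.651, 0.721 and 1.84 CPM in control and 1.26, 2.12, 4.19 and 4.62 CPM in Atg14-deficient eTregs.

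In cTregs 0 of 37 regions passed at either threshold, beside 0.0163% (adjusted) and 3.34% (unadjusted) of all tested regions. DESeq2's Wald test also gave 0 at either threshold. Log2 fold changes were between -1.12 (region 28) and 0.59 (region 1), with a median of -0.02. The count at the unadjusted threshold was 2 without Atg14-deficient cTreg replicate 4 and 1 without Atg14-deficient cTreg replicate 1 or control cTreg replicate 1 or 3.

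**Figure D4:**
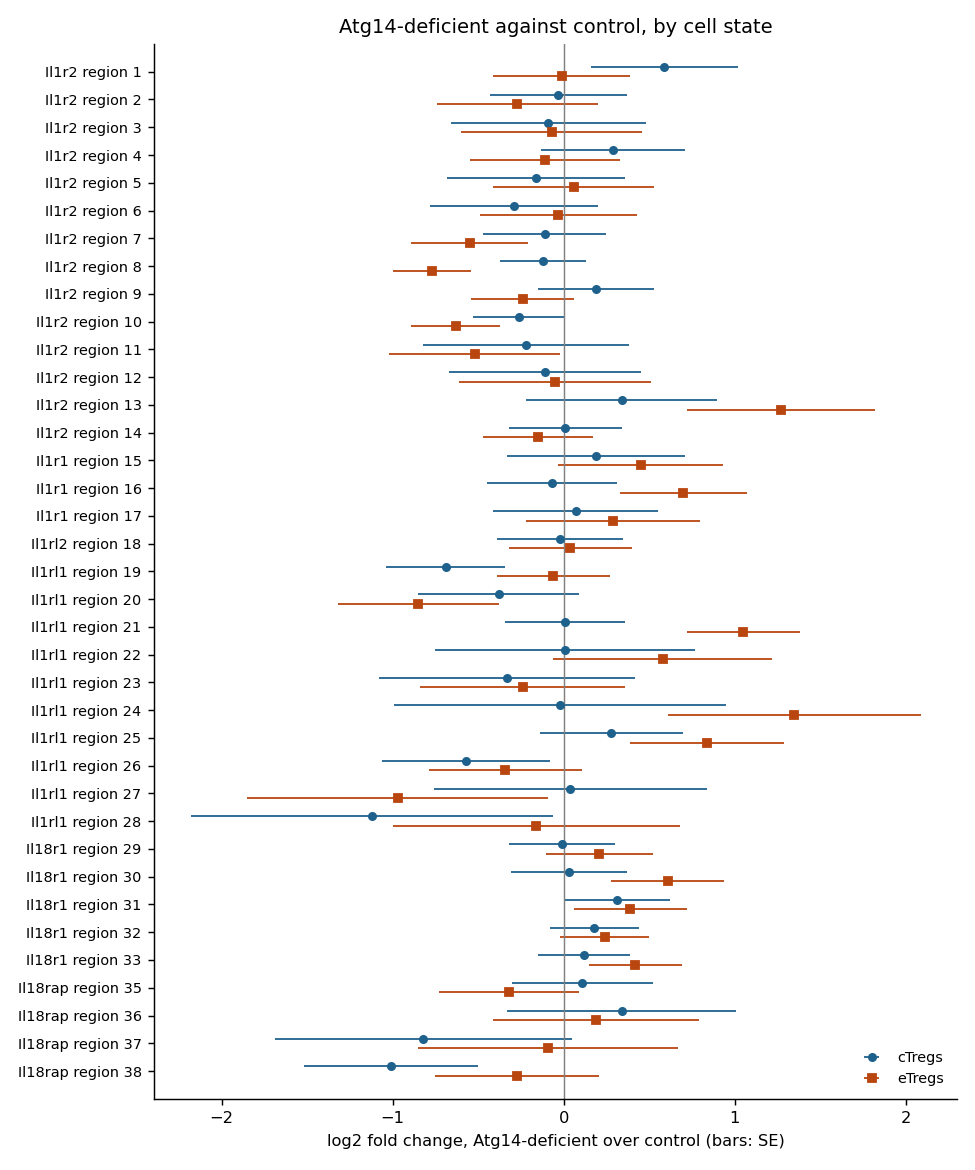
log2 fold change of Atg14-deficient over control (horizontal axis, bars are SE) for the 37 tested regions in cTregs and eTregs. Il1r2 region 8 (-0.77) and Il1rl1 region 21 (1.05) passed only the unadjusted threshold in eTregs and are close to 0 in cTregs.

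The difference between the genotype effects of the states was tested directly. No region passed the adjusted threshold, neither in the cluster nor in the table (0%), and 1 of 37 passed the unadjusted threshold, beside 3.05% of all tested regions. This was Il1rl1 region 21, with a difference of 1.04 ± 0.48 on the log2 scale (adjusted p = 1). It missed the unadjusted threshold without both intermediate cTreg libraries (0.76 ± 0.55), and without control cTreg replicate 2 (0.80), Atg14-deficient cTreg replicate 1 (1.01) or 4 (1.01), control eTreg replicate 1 (0.88) or 3 (0.80), or Atg14-deficient eTreg replicate 4 (0.78). Without Atg14-deficient eTreg replicate 2, 2 regions passed the unadjusted threshold. For Il1r2 region 8 the difference was -0.65 ± 0.34, which missed the unadjusted threshold, and -0.77 ± 0.38, which passed it, without the intermediate libraries (adjusted p = 1 in both). It also passed the unadjusted threshold with the replicate number as a block (-0.68 ± 0.31, adjusted p = 0.905).

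The other genes of the pathway were described by the regions nearest to their starts. Among the co-receptor and decoys (Il1rap, Sigirr, Il18bp, Il1rn), 0 of 14 tested regions passed between the states (2 at the unadjusted threshold), beside 18.9% of all. Among the ligands, 3 of 9 genes had tested regions, and 2 of 7 regions were more accessible in eTregs, beside 8.40% of all tested regions. A region 14.4 kb upstream of the Il1b start (chr2:129385261-129385770) rose from 13.98 ± 4.16 to 22.6 ± 7.65 CPM (SD, n = 7 each, log2 fold change 0.67, adjusted p = 0.0122). It went from 14.9 ± 5.01 to 29.8 ± 1.41 CPM in control mice, where it passed, and from 13.3 ± 4.05 to 17.1 ± 4.92 CPM in Atg14-deficient mice, where no ligand region passed. The promoter of Il33, which encodes the ligand of ST2, rose from 4.64 ± 1.96 to 8.28 ± 3.12 CPM (log2 fold change 0.82, adjusted p = 0.0468).

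Of 56 tested regions of the 11 signalling genes, 2 were more and 4 less accessible in eTregs, beside 8.40% and 10.5% of all. The promoter of Irak1 (8.63 ± 1.69 to 14.3 ± 2.10 CPM, adjusted p = 0.00806) and a region 12.5 kb downstream of the start of Irak2 (2.61 ± 2.10 to 10.5 ± 3.94 CPM, adjusted p = 0.00136), which encode receptor-proximal kinases, were higher. A region 21.4 kb downstream of the start of Irak4, which encodes another kinase of this family, was lower (22.7 ± 5.17 to 14.5 ± 2.81 CPM, adjusted p = 0.00653). A region 84.4 kb from the start of Map3k7, which encodes the kinase TAK1, was lower (11.4 ± 5.22 to 2.19 ± 1.09 CPM, log2 fold change -2.24, adjusted p = 1.61e-05).

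Genes known for ST2-expressing tissue Tregs (Gata3, Batf, Areg, Pparg) had 9 more and 12 less accessible regions among 68 tested, 13.2% and 17.6%, beside 8.40% and 10.5% of all tested regions. The promoter of Areg, an epidermal growth factor receptor ligand of tissue repair, rose from 14.4 ± 5.69 to 35.1 ± 8.11 CPM (log2 fold change 1.30 ± 0.17, adjusted p = 5.96e-06). Gata3, the transcription factor that drives Il1rl1 in type 2 lymphocytes, had 12 less accessible regions, all those of the list, and 3 more accessible ones. Among them were a region 196.4 kb downstream (-1.04 ± 0.19, adjusted p = 0.000216) and one 59.0 kb upstream of its start (1.37 ± 0.31, adjusted p = 0.0024). The less accessible ones lay 10.8 to 684.9 kb from the start and were assigned to Gata3 as the nearest gene only. The tested regions of Gata3 alone were not counted, so no share is given for it. No region of these lists passed the adjusted threshold between the genotypes in either state.

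Finally, the regions of the table most like the region of highest mean count of each receptor gene were ranked by Pearson's r of log2 CPM over the 14 libraries, among 37178 regions, as a description. The libraries share state and depth, which enter these values. The highest r was 0.918 with the Ybx3 promoter for Il1r2 region 8, 0.863 with a region of Stk17b for Il1r1 region 16, 0.850 with a region of Klf13 for Il1rl2 region 18, 0.887 with a region of Dmwd for Il1rl1 region 21, 0.906 with a region of Arhgap26 for Il18r1 region 33 and 0.888 with a region of Zfp277 for Il18rap region 35.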

How the data were processed

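The authors trimmed, aligned and deduplicated paired-end reads, corrected read ends for the transposase, called peaks with MACS2, merged them across libraries and counted nucleosome-free reads per region. The values used are these raw counts, deposited by the authors as whole numbers without normalization. The methods name mm9 and Trimmomatic, while the submitters' processing notes name mm10 (GRCm38) and cutadapt 1.9. All 67207 regions on chromosomes lay within GRCm38, and 26850 of 56164 protein-coding starts of RefSeq had a region within 200 bp (2347 when regions were moved by 20000 bp), so GRCm38 was used. Of the counts, 82.0% were even, so reads may have been counted in pairs, and halved counts were an alternative.

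Libraries were grouped by their labels and matched to columns by name. Counts were scaled by library totals, filtered with filterByExpr (61366 regions) and fitted with edgeR 4.0.16 (glmQLFit, robust, 4 groups in 1 model) in R 4.3.3 with limma 3.58.1, and p-values were adjusted over all tested regions by Benjamini-Hochberg. The common biological coefficient of variation was 25.6%. Thresholds were 0.05 for p and 0.5 for the log2 fold change. Tested cluster regions had mean counts of 6.36 to 67.8 (median 22.8, and 23.0 over all tested regions), which limits the precision. The fit was tested on simulated counts. Single values were compared by an exact two-sided permutation test in SciPy 1.17.1. Promoter regions overlapped 1 kb around a RefSeq start, and motif letters were searched in the central 200 bp.

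Alternatives were TMM, DESeq2 1.42.0 size factors and Wald test, loess offsets (span 0.3), no filter, at least 10 counts in every library, halved counts, the replicate number as a block, only the compared groups, and each library left out. For the states and the interaction, the block was the replicate number within a genotype. Between the genotypes of a state, it joined same-numbered control and Atg14-deficient libraries, which are different mice, and is no pairing. Leaving out both intermediate cTreg libraries was added after seeing the data. Named regions are that of highest mean count of each gene, those within 1 kb of a start, those past the adjusted threshold in any comparison and those past the unadjusted threshold by genotype, and a few others (regions 1, 3, 5 to 7, 17, 22, 25, 26, 28 and 34) were named after their values were seen. The genes, lists and tests were chosen with earlier results of these data known. One marker gene is not reported here and was left out of the list it belonged to.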

Additional observations from a re-analysis of the deposited data

Results flagged for a closer look

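A library stood apart from the other 3 of its group at 2 of the 32 groups of 4 Atg14-deficient libraries checked (the named regions in either state). At Il1r2 region 12 the lowest Atg14-deficient cTreg library, replicate 4, had 1.93 CPM and the other libraries 3.12 to 3.36. At Il1r1 region 16 the highest Atg14-deficient cTreg library, replicate 3, had 7.89 CPM and the others 4.20 to 4.50. Chance flags about 1 in 20 groups. The genotype effect at Il1rl1 region 21 was higher in eTregs than in cTregs by 1.04 on the log2 scale, past the unadjusted but not the adjusted threshold in edgeR's test of the difference (adjusted p = 1).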

How the results depend on the processing

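The number of regions past the adjusted threshold between the states over both genotypes (7) was 2 with at least 10 counts in every library, where 13 of the cluster's regions were left to test, 13 without both intermediate cTreg libraries, and 5 to 11 when single libraries were left out. In control mice (2) these counts were 1, 4 and 0 to 3, and in Atg14-deficient mice (4) they were 2, 6 and 1 to 5. By genotype, 0 passed the adjusted threshold under every alternative run. At the unadjusted threshold the count in eTregs (4) was 7 with the compared groups alone and 3 to 7 when single libraries were left out. The count in cTregs (0) was 2 with loess offsets, 1 with at least 10 counts and 0 to 2 when single libraries were left out, and that for the interaction (1) was 0 to 2. Within a genotype, deviations from the group means correlated by 0.054 to 0.243 between eTreg and cTreg libraries of the same number. Of these 7 pairs, 1 was below 0.1. Between the genotypes, same-numbered libraries of a state correlated by -0.217 to 0.091. No source says that a number stands for 1 mouse, so the main fit did not take the numbers as pairs. With the replicate block the counts were 12 over both genotypes, 4 in control and 7 in Atg14-deficient mice, and 2 for the interaction at the unadjusted threshold. Gene bodies alone held 19 regions in place of 38. No log2 fold change that passed a threshold reversed, whereas some that did not pass changed sign. The genotype difference of Il1rl2 region 18 in eTregs was 0.04, and -0.01 with TMM and -0.03 with loess offsets. Without both intermediate libraries the genotype difference in cTregs went from -0.03 to 0.42 at region 2, from -0.11 to 0.46 at region 12, from -0.07 to 0.17 at region 16 and from -0.33 to 0.08 at region 23, and the state difference of region 12 in control mice from -0.19 to 0.22. The cause of these changes was not tested. Depth limits regions with few counts, such as 24 and 28.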
